A study of Mus musculus with 27 samples.

Results

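The comparison described here asks how the nucleus-to-cytoplasm ratio of each RNA moved when mouse embryonic stem cells lost Dicer. It was measured in 12 of the 27 libraries of the series, the nuclear and cytoplasmic fractions at day 0 and day 12, with 3 libraries in each of the 4 groups. For each gene the ratio change is the log2 nuclear minus cytoplasmic level at day 12, less the same difference at day 0. It was tested in 17124 of the 38123 genes, those with a mean of at least 0.5 FPKM (fragments scaled for transcript length and for library size) in 1 of the 4 groups. A negative ratio change means that the RNA shifted towards the cytoplasm relative to other RNAs, and a positive one that it shifted towards the nucleus.

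The cells were the XY line DTCM23/49, in which Dicer can be deleted at will, kept on gelatin in medium with serum and leukemia inhibitory factor. Day 0 cells were taken before induction, and day 12 cells had been cultured with 4-hydroxytamoxifen (Tamoxifen) at 800 nM, which deletes the RNase III domain of Dicer. Dicer-deficient colonies were then picked and expanded, and both fractions were prepared with a commercial kit that separates nuclei from cytoplasm. Polyadenylated RNA was sequenced from both ends with directional reads of 100 bases. By the labels an ethanol-treated control was part of the design, but no library after day 0 carries that label, so loss of Dicer, exposure to the drug, 12 days of culture and the expansion of colonies cannot be told apart.

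Dicer cuts precursor hairpins into mature microRNAs, which guide Argonaute proteins to sites in mRNAs, mostly in 3′ untranslated regions (UTRs), where they lower translation and hasten decay. Mature microRNAs act mainly in the cytoplasm, so an mRNA freed from them is expected in textbook accounts to gain in the cytoplasm rather than in the nucleus. In mouse embryonic stem cells the dominant microRNAs are those of the miR-290 cluster, which share their seed with the miR-302 family and hold down inhibitors of the G1 to S transition.

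The shared seed is shown first because the genes with its site are followed through the comparison. The mature sequences below are from RefSeq (assembly GRCm38.p6), 5′ to 3′, with the seed, bases 2 to 8, in capitals. All 5 carry the same seed.
miR-291a-3p: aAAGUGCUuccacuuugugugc
miR-294-3p: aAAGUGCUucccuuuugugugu
miR-295-3p: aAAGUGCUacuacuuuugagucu
miR-302b-3p: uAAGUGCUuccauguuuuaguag
miR-302d-3p: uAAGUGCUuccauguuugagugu

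An mRNA site of 8 bases that pairs with this seed and has an A at its 3′ end reads AGCACTTA. It was found on the mRNA strand in the annotated 3′ UTR of 453 of 13285 tested genes with a UTR, or 3.41%, and in 616 of 20411 UTRs of all protein-coding genes, or 3.02%. The windows below show 6 such sites with the bases around them, 5′ to 3′ on the mRNA strand as genomic sequence of GRCm38, with the site in capitals. Tgfbr2, Irf2, Syde1 and Srsf1 are site genes whose ratio fell, and Cdkn1a and Lats2 are long-standing miR-290 and miR-302 targets.
Tgfbr2, chr9:116087762-116087787, minus strand: aaaacctaaAGCACTTAttttcaatc
Irf2, chr8:46846655-46846680, plus strand: ttatcttgaAGCACTTAcaataggcc
Syde1, chr10:78584786-78584811, minus strand: gaaaaactgAGCACTTAactcctccc
Srsf1, chr11:88052943-88052968, plus strand: aaccacgaaAGCACTTAaatctcttt
Cdkn1a, chr17:29100491-29100516, plus strand: gggtgtcaaAGCACTTAgtgggtctg
Lats2, chr14:57691077-57691102, minus strand: tatggaaagAGCACTTAttttgtgga
A match of these letters is a description of the sequence and does not show that the site is used.

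Dicer1, the targeted gene, checked the day labels of the fraction libraries, though not which fraction is which. In the nucleus it stood at 15.1, 16.8 and 7.86 FPKM at day 0 and at 5.46, 3.42 and 3.70 FPKM at day 12. In the cytoplasm the values were 23.5, 21.2 and 22.9 FPKM at day 0 and 3.01, 2.73 and 3.45 FPKM at day 12. All day 12 libraries lay below all day 0 libraries of their fraction, at 31.6% of the day 0 mean in the nucleus and 13.6% in the cytoplasm (exact 2-sided permutation test, p = 0.1 in each, the smallest that 3 against 3 can give). The deletion takes out part of the transcript alone. The whole cell libraries labelled day 12 went against their label, with Dicer1 at 13.4 to 16.7 FPKM against 1.68 to 1.90 FPKM at day 10, so whole cells are read here at day 0, day 8 and day 10, and those libraries enter the whole cell fit only through the spread.

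Depth was similar across the 12 fraction libraries, between 0.711 and 1.00 times that of cytoplasm day 0 replicate 1 by the steps between low FPKM values. Between 12764 and 14023 genes per library reached 1 FPKM. Correlations within groups were 0.987 to 0.991 in the cytoplasm, but 0.912 to 0.982 among the day 0 nuclei and 0.938 to 0.987 among the day 12 nuclei. Nucleus day 0 replicate 3 and nucleus day 12 replicate 1 stood apart from the rest of their groups, and the counts of each gene list below are given with and without them. The median standard deviation of a gene within a group was 0.30 and 0.24 log2 units in the nuclei at day 0 and day 12, and 0.10 in the cytoplasm on both days. Without the 2 libraries the nuclear values were 0.10 and 0.08, but these are the spreads of the closest pairs.

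Of the 17124 genes, 227 passed the test for a ratio change (limma with a trended prior, Benjamini-Hochberg adjusted p under 0.05), which is 1.33%. The ratio fell in 180 of them, or 1.05% of the genes tested, and rose in 47, or 0.274%. Unadjusted, 2842 genes had p under 0.05. The median ratio change was -0.06 over all genes and 1.16 in size over the 227. FPKM is relative within a library, so these values say nothing of the amount of RNA in a fraction, and in such bulk samples fewer cells of a type and less RNA per cell cannot be told apart.

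The count depended on which libraries were in the fit. Without nucleus day 0 replicate 3 and nucleus day 12 replicate 1, 6580 of 17003 genes passed, or 38.7%, with 2904 higher and 3676 lower. All 227 genes were among them with the same sign. Leaving out nucleus day 0 replicate 3 alone gave 1443 genes and nucleus day 12 replicate 1 alone 1699. Leaving out 1 of the other nuclear libraries gave 83 to 220, and 1 of the 6 cytoplasmic libraries 24 to 55. All of these but the 220 without nucleus day 0 replicate 2 are more than 1.5 times away from 227. Only 24 of the 227 genes kept an adjusted p under 0.05 in all 12 of these fits, and each of the 227 kept it without either of the 2 libraries that stood apart. For the genes named below whose ratio changed, the number of the 12 fits that called them is given.

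The 2 libraries differed from their groups along transcript length. Protein-coding genes were split into 5 classes of exon length, from short to long. The median deviation of nucleus day 0 replicate 3 from the other replicates of its group ran 0.46, 0.18, 0.00, -0.18 and -0.46 log2 units over these classes. That of nucleus day 12 replicate 1 ran -0.38, -0.13, -0.01, 0.09 and 0.23. The median ratio change ran from -0.12 in the shortest to 0.04 in the longest class with all 12 libraries, and from 0.16 to -0.16 with 10, so the direction along length turned over. Genes whose ratio fell numbered 40, 35, 45, 25 and 11 over the classes and those whose ratio rose 1, 5, 7, 14 and 11. The ratio changes with and without the 2 libraries correlated at Pearson's r = 0.798 over 16744 genes, which share 10 of the 12 libraries.

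**Figure D1:**
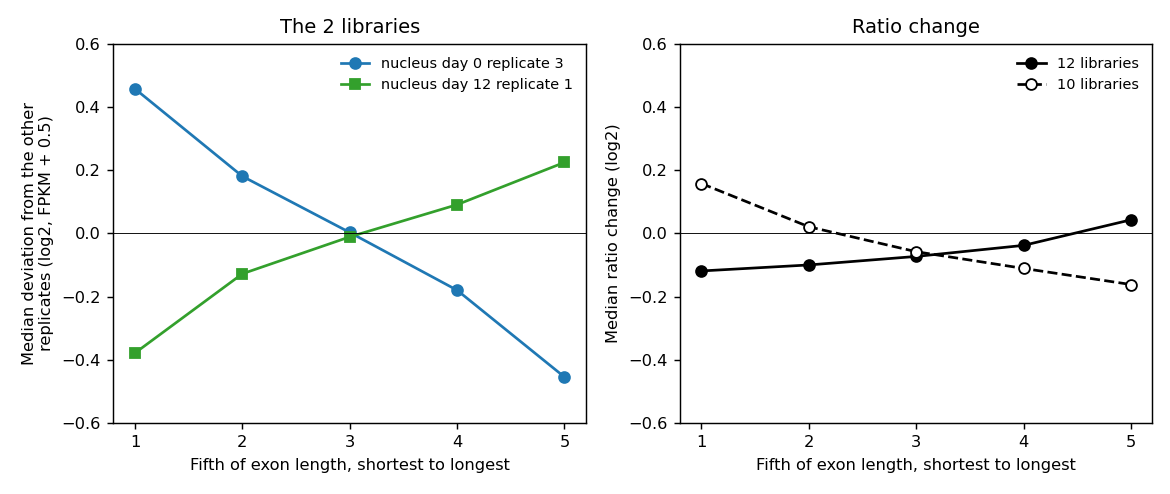
Left, the median deviation of nucleus day 0 replicate 3 and nucleus day 12 replicate 1 from the other replicates of their groups, in log2 units, over 5 classes of exon length of protein-coding genes. Right, the median ratio change in log2 units over the same classes, which runs from -0.12 to 0.04 with all 12 libraries and from 0.16 to -0.16 without the 2.

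Each gene whose ratio changed was placed by the fraction that moved more. In 90 genes (39.6% of the 227) the larger move was a rise in the cytoplasm and in 19 (8.37%) a fall there. In 63 genes (27.8%) it was a fall in the nucleus and in 18 (7.93%) a rise there. In the remaining 37 (16.3%) both fractions passed their own test in opposite directions, 27 of them with a nuclear fall and a cytoplasmic rise. As background, 6281 genes (36.7%) passed the test of the nuclear change, 15.1% up and 21.6% down, and 5574 (32.6%) that of the cytoplasmic change, 16.0% up and 16.6% down. Both tests use 1 spread for both fractions, and with a separate spread for each the counts were 2857 nuclear and 10265 cytoplasmic. Without the 2 nuclear libraries 181 of the 227 genes stayed in their class. Counts in gene lists below stand beside the shares of all genes given here for each fraction. For the ratio those shares were 1.05% lower and 0.274% higher, and 21.6% lower and 17.1% higher without the 2 nuclear libraries.

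**Figure D2:**
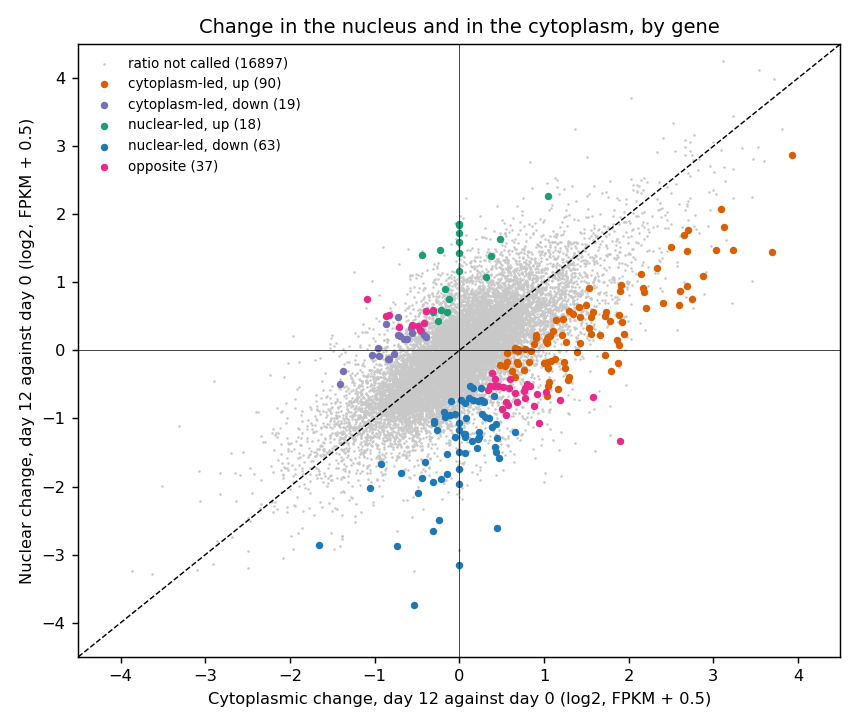
The change from day 0 to day 12 in the cytoplasm (x axis) and in the nucleus (y axis), both in log2(FPKM + 0.5), for every gene tested, coloured by class. The dashed line marks equal changes, and the 180 genes whose ratio fell lie below it and the 47 whose ratio rose above it.

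Most genes whose ratio fell had been higher in the nucleus at day 0. Of the 180, 159 were higher in the nucleus than in the cytoplasm at day 0 by the same test and 0 were lower, against 25.3% and 16.4% of all genes tested. At day 12, 45 were higher in the nucleus and 42 lower, against 18.4% and 15.7%. Of the 47 genes whose ratio rose, 5 were higher in the nucleus at day 0 and 27 at day 12, and their median log2 nuclear minus cytoplasmic level was -0.50 and then 0.56. Over all genes the standard deviation of that level was 0.82 at day 0 and 0.70 at day 12. These levels come from the values that made the calls, so the day 0 level describes the genes and is no separate support.

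The largest class held genes that rose mainly in the cytoplasm. Its 90 genes had a median cytoplasmic change of 1.37, a median nuclear change of 0.21 and ratio changes of -2.26 to -0.60. Their median nuclear minus cytoplasmic level was 1.08 at day 0 and -0.19 at day 12. By the rule for named genes it is led by Emp1, Anxa3, Cd248, Anxa1 and Ecm1, all of which encode membrane-bound, membrane-associated or secreted proteins. The rule asked for no overlap between days in the leading fraction, or in both fractions where these moved in opposite directions. For genes named by it, such lack of overlap is therefore no separate support.

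Emp1 (chr6:135362545-135383173), a tetraspan membrane protein, had the largest ratio change of this class. Its cytoplasmic level was 2.93, 2.97 and 3.34 FPKM at day 0 and 45.5, 46.5 and 45.5 FPKM at day 12. In the nucleus it stood at 13.2, 12.6 and 13.8 FPKM at day 0 and at 35.6, 38.0 and 36.4 FPKM at day 12. Emp1 was thus higher in the nucleus at day 0 and higher in the cytoplasm at day 12, with no overlap of groups in either fraction. Its cytoplasmic change was 3.70, its nuclear change 1.44 and its ratio change -2.26 ± 0.12 (SE, adjusted p = 2.05e-05), called in 12 of the 12 fits that leave out 1 library.

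Anxa1 (chr19:20373428-20390944), a calcium-dependent phospholipid-binding protein, went from 4.46, 3.81 and 5.30 FPKM to 32.8, 34.3 and 31.8 FPKM in the cytoplasm. In the nucleus it went from 33.4, 29.9 and 19.8 FPKM to 50.6, 44.2 and 43.1 FPKM. All day 12 values were above all day 0 values in both fractions, and the ratio change was -1.99 ± 0.25 (adjusted p = 0.00987, 12 of 12 fits). Its relative Anxa3 (chr5:96793339-96845966) rose in the cytoplasm from 12.2, 15.1 and 12.6 FPKM to 46.9, 47.7 and 46.7 FPKM. Its nuclear values were 46.2, 47.2 and 38.4 FPKM at day 0 and 63.1, 26.9 and 26.4 FPKM at day 12, where replicate 1 is the library that stood apart. Its ratio change was -2.09 ± 0.39 (adjusted p = 0.0301), called in 2 of 12 fits, those without nucleus day 0 replicate 3 and without nucleus day 12 replicate 1.

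Ecm1 (chr3:95734147-95739569), a secreted matrix protein, went from 0.983, 0.788 and 0.831 FPKM to 7.26, 7.44 and 8.63 FPKM in the cytoplasm and had a ratio change of -1.93 ± 0.29 (adjusted p = 0.0159, 7 of 12 fits). Its nuclear values were 35.7, 28.4 and 22.5 FPKM at day 0 and 32.5, 51.9 and 54.5 FPKM at day 12, so those groups overlapped. Cd248 (chr19:5068078-5070682), a transmembrane glycoprotein, went from 0.704, 0.776 and 0.672 FPKM to 3.46, 4.04 and 4.43 FPKM in the cytoplasm. Its nuclear groups overlapped between 7.19 and 15.7 FPKM, and its ratio change was -2.06 ± 0.34 (adjusted p = 0.0201, 5 of 12 fits).

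Known targets of miR-290 and miR-302 had larger changes in the cytoplasm than in the nucleus on the median. Of 20 tested, 17 rose and 1 fell in the cytoplasm (median 0.99) and 10 rose and 0 fell in the nucleus (median 0.53), against the percentages over all genes given above. The ratio fell in 4 of the 20 and rose in 0, with a median of -0.55 beside -0.06 over all genes. Without the 2 nuclear libraries it fell in 14 and rose in 2, with a median of -0.68 beside -0.04. The 4 were Tgfbr2, Irf2, Bcl2l11 and Ei24, each called in 2 or 3 of the 12 fits.

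Tgfbr2, the ligand-binding receptor of TGF-β, stood in the cytoplasm at 0.518, 0.529 and 0.266 FPKM at day 0 and at 7.21, 6.78 and 7.22 FPKM at day 12. Its nuclear values were 2.81, 2.22 and 1.26 FPKM at day 0 and 8.12, 5.76 and 5.77 FPKM at day 12. It rose without overlap in both fractions, by 3.03 in the cytoplasm and 1.47 in the nucleus, with a ratio change of -1.55 ± 0.32 (adjusted p = 0.0464, 2 of 12 fits). Irf2, a transcription factor of the interferon response, rose in the cytoplasm from 0.454, 0.727 and 0.692 FPKM to 4.83, 4.29 and 4.42 FPKM and in the nucleus from 3.08, 2.12 and 1.74 FPKM to 4.58, 4.57 and 4.93 FPKM. The groups of Irf2 did not overlap in either fraction, and its ratio change was -1.25 ± 0.24 (adjusted p = 0.0359, 2 of 12 fits). Bcl2l11, which encodes the pro-apoptotic protein Bim, had a ratio change of -0.86 (adjusted p = 0.0448, 2 of 12 fits) and Ei24, an endoplasmic reticulum protein, one of -0.68 (adjusted p = 0.0243, 3 of 12 fits).

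For Cdkn1a and Lats2 the cytoplasm rose too, but the ratio change did not pass. Cdkn1a, which encodes the cyclin-dependent kinase inhibitor p21, stood at 44.1, 38.9 and 37.9 FPKM in the cytoplasm at day 0 and at 122, 122 and 120 FPKM at day 12. Its nuclear values were 70.1, 58.3 and 102 FPKM at day 0 and 80.4, 108 and 102 FPKM at day 12, where the groups overlapped. Its ratio change was -1.22 ± 0.26 (adjusted p = 0.0524), called in 3 of 12 fits, and -0.87 (adjusted p = 0.000777) without the 2 nuclear libraries. Lats2, a kinase of the Hippo pathway, rose in the cytoplasm from 0.643, 0.813 and 0.706 FPKM to 11.1, 9.86 and 10.1 FPKM. Its ratio change was -1.53 ± 0.39 (adjusted p = 0.0828), called in 2 of 12 fits, and -2.11 (adjusted p = 1.44e-05) without the 2.

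Among all 453 tested genes with the AGCACTTA site, the ratio fell in 9 and rose in 0. That is 1.99% beside 1.17% of the tested genes with a UTR, and the median ratio change was -0.17 beside -0.06. In the cytoplasm 155 site genes rose and 43 fell, 34.2% and 9.49% beside 18.3% and 19.3% (median 0.31 beside -0.04). In the nucleus 134 rose and 58 fell, 29.6% and 12.8% beside 16.1% and 23.5% (median 0.17 beside -0.10). Without the 2 nuclear libraries the ratio fell in 193 site genes, 42.7% beside 24.7%, and rose in 39, with a median of -0.28 beside -0.04. UTRs with the site were longer, with a median of 2803 bases beside 1109. Within the 5 classes of exon length the median ratio change of site genes was -0.15, -0.36, -0.24, -0.18 and -0.02, beside -0.12, -0.10, -0.07, -0.04 and 0.04 for all genes of those classes. Without the 2 nuclear libraries it was 0.32, -0.19, -0.20, -0.34 and -0.35, beside 0.17, 0.02, -0.06, -0.11 and -0.16, so in the shortest class, which holds 21 site genes, the site genes then lay above the others. For the let-7 site CTACCTCA, a family low in these cells, the ratio fell in 4 of 497 genes and rose in 0, with a median of -0.03. When the 2 nuclear libraries were left out, it fell in 152 of 495, or 30.7% beside the same 24.7%, and rose in 65, with a median of -0.14.

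The 9 site genes whose ratio fell are named because they are few, after their values were seen. Besides Tgfbr2 and Irf2, Syde1 had a ratio change of -1.78 ± 0.31 (adjusted p = 0.0241, 4 of 12 fits), with a cytoplasmic change of 2.88 and a nuclear one of 1.10. Hp1bp3, a heterochromatin protein, Gpkow, a splicing-associated protein, Cd109, a membrane-anchored TGF-β co-receptor, and Slc35a4, a solute carrier, also changed mainly by a cytoplasmic rise. Srsf1 moved in opposite directions in the fractions, and Zfand5, a zinc finger protein, changed mainly by a nuclear fall. Hp1bp3, Gpkow, Cd109, Slc35a4 and Zfand5 were called in 11, 9, 3, 3 and 2 of the 12 fits.

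Targets of p53, G1 to S regulators and immediate early genes held more genes of this class. Of 23 p53 targets the ratio fell in 3, Perp, Btg2 and Ei24, and rose in 0 (median -0.36), with 12 up and 2 down in the cytoplasm and 5 up and 4 down in the nucleus. Over all genes 16.0% were up and 16.6% down in the cytoplasm, and 15.1% up and 21.6% down in the nucleus. With the 10 other libraries the ratio of p53 targets fell in 16 and rose in 3 (median -0.62), beside 21.6% and 17.1% of all genes. Btg2, an antiproliferative protein that binds the CCR4-NOT deadenylase, stood in the cytoplasm at 24.0, 24.8 and 23.7 FPKM at day 0 and at 53.5, 50.7 and 46.9 FPKM at day 12. Its nuclear values were 43.6, 42.0 and 41.7 FPKM and then 42.5, 35.0 and 35.4 FPKM, so only the cytoplasm rose, and the ratio change was -1.22 ± 0.14 (adjusted p = 0.00549, 12 of 12 fits). Perp, a desmosomal protein, went from 30.1, 31.5 and 30.7 FPKM to 105, 108 and 108 FPKM in the cytoplasm, with a ratio change of -1.35 ± 0.20 (adjusted p = 0.0159, 7 of 12 fits).

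Of 26 G1 to S regulators the ratio fell in 2 and rose in 0 (median -0.10), and without the 2 nuclear libraries it fell in 11 and rose in 3 (median -0.21). Both are products of neighbouring genes on chromosome 4 that inhibit the cell cycle. Cdkn2b (chr4:89306299-89311039), which encodes p15, stood in the cytoplasm at 1.73, 1.56 and 2.04 FPKM at day 0 and at 9.05, 8.37 and 7.29 FPKM at day 12. Its nuclear groups overlapped, at 7.13, 4.94 and 5.38 FPKM and then 6.36, 7.28 and 7.04 FPKM, and its ratio change was -1.70 ± 0.21 (adjusted p = 0.0084, 12 of 12 fits). Cdkn2a (chr4:89274471-89294653), which encodes p16 and Arf, rose in both fractions and had a ratio change of -0.98 ± 0.20 (adjusted p = 0.0472, 4 of 12 fits).

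Of 19 immediate early genes, which growth factors switch on within minutes and whose mRNAs are short-lived, the ratio fell in 2, Btg2 and Ccn1, and rose in 0. The median was -0.77, and without the 2 nuclear libraries 15 fell and 1 rose with a median of -1.02. In the cytoplasm 8 rose and 3 fell, beside 16.0% and 16.6% of all genes. In the nucleus 2 rose and 2 fell, beside 15.1% and 21.6%. Ccn1, a secreted matricellular protein, had a ratio change of -1.81 ± 0.30 (adjusted p = 0.0194, 5 of 12 fits). The linker histone gene Hist1h1c, whose cytoplasmic change was 1.66 and ratio change -1.44 ± 0.19 (adjusted p = 0.0101, 12 of 12 fits), belongs to the same class, but histone genes have near-identical copies among which reads may be split.

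Proteins that are made on the endoplasmic reticulum were looked at because that membrane can stay with nuclei in a fractionation. Of 45 secreted and membrane protein genes the ratio fell in 1 and rose in 0 (median -0.23, and without the 2 nuclear libraries 19 lower and 7 higher with the same median), with 22 up and 3 down in the cytoplasm and 12 up and 5 down in the nucleus. The 1 was Itga5, a subunit of the fibronectin receptor, with a ratio change of -1.02 ± 0.14 (adjusted p = 0.0114, 10 of 12 fits). Over all genes 16.0% were up and 16.6% down in the cytoplasm, and 15.1% up and 21.6% down in the nucleus. At day 0, 34 of the 45 were higher in the nuclear libraries without overlap. The share of all genes without overlap was not counted, while by the test 25.3% of all genes were higher in the nucleus at day 0. The summed level of the 45 was then 4883 to 5344 FPKM in the nucleus and 2855 to 2927 FPKM in the cytoplasm. At day 12 the sums were 5530 to 6769 FPKM and 4037 to 4045 FPKM. The part of membrane-bound RNA in the ratio changes was not tested.

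**Figure D3:**
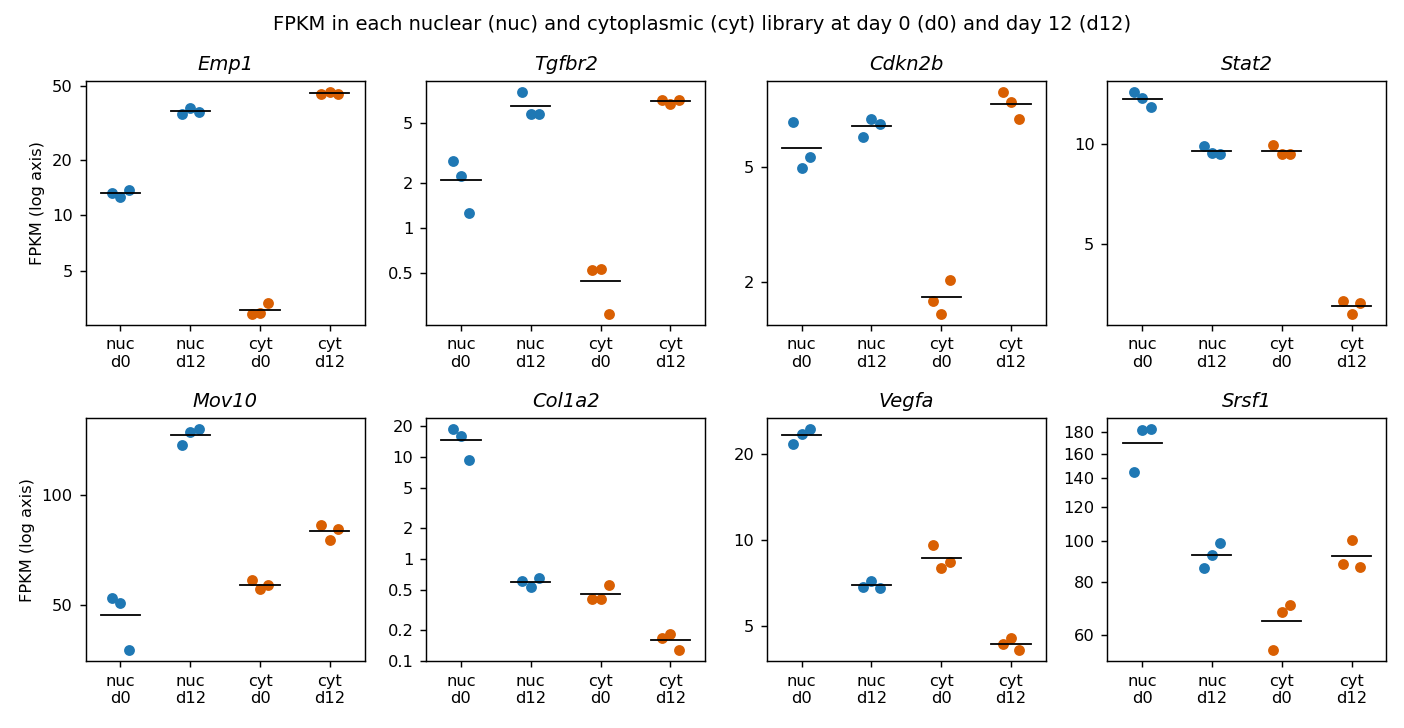
FPKM in each of the 12 libraries (points, logarithmic axis) and the group mean (bar) for Emp1, Tgfbr2, Cdkn2b, Stat2, Mov10, Col1a2, Vegfa and Srsf1 in the nucleus and the cytoplasm at day 0 and day 12. Emp1, Tgfbr2 and Cdkn2b rise mainly in the cytoplasm, Mov10 rises mainly in the nucleus, Col1a2 falls in the nucleus, and Srsf1 moves in opposite directions.

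The 19 genes that fell mainly in the cytoplasm had a median cytoplasmic change of -0.73, a median nuclear change of 0.17 and ratio changes of 0.59 to 1.26. Stat2 (chr10:128270559-128292849), a transcription factor of interferon signalling, stood in the cytoplasm at 9.91, 9.31 and 9.34 FPKM at day 0 and at 3.37, 3.09 and 3.32 FPKM at day 12. Its nuclear values were 14.3, 13.8 and 13.0 FPKM and then 9.85, 9.37 and 9.35 FPKM. Stat2 fell without overlap in both fractions and more in the cytoplasm, with a ratio change of 0.91 ± 0.12 (adjusted p = 0.0101, 12 of 12 fits). The rule for named genes put 5 others ahead of it by size of change, namely Tex14, a germ cell bridge protein (1.22, adjusted p = 0.0498), Lrrc2 (1.08, adjusted p = 0.0191), Alg13, a subunit of an N-glycosylation enzyme (1.00, adjusted p = 0.0479), Zfp414 (0.97, adjusted p = 0.0194) and Espl1, which encodes separase (0.95, adjusted p = 0.0488). They were called in 2, 5, 2, 6 and 3 of the 12 fits. Of 20 interferon genes the ratio rose in Stat2 and fell in Irf2 alone (median 0.17), and without the 2 nuclear libraries it rose in 7 and fell in 3 (median 0.21).

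The 18 genes that rose mainly in the nucleus had a median nuclear change of 1.39 and a median cytoplasmic change of 0.00. Mov10 (chr3:104794836-104818563), an RNA helicase found with Argonaute, stood in the nucleus at 52.5, 50.8 and 37.7 FPKM at day 0 and at 137, 149 and 152 FPKM at day 12. In the cytoplasm it went from 58.6, 55.4 and 57.0 FPKM to 83.1, 75.5 and 80.7 FPKM. It rose in both fractions without overlap, and the ratio change was 1.16 ± 0.18 (adjusted p = 0.0165, 6 of 12 fits). Ceacam20, an adhesion protein, rose in the nucleus from 0.527, 0.503 and 0.401 FPKM to 4.54, 4.05 and 4.07 FPKM and in the cytoplasm from 0.415, 0.312 and 0.336 FPKM to 1.33, 1.09 and 1.38 FPKM. Its groups did not overlap in either fraction, with a ratio change of 1.23 ± 0.18 (adjusted p = 0.0159, 8 of 12 fits). Tprn (ratio change 1.83, adjusted p = 0.0213, 5 of 12 fits), Casz1 (1.06, adjusted p = 0.028, 3 of 12) and Zfp704 (1.01, adjusted p = 0.033, 4 of 12) complete the 5 named by rule, the last 2 being zinc finger genes.

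The 63 genes that fell mainly in the nucleus had a median nuclear change of -1.23 and a median cytoplasmic change of 0.05, and their nuclear minus cytoplasmic level went from 1.64 to 0.13. Col1a2 (chr6:4504814-4541544), a chain of type I collagen, had a large change in the nucleus, from 18.95, 16.2 and 9.26 FPKM to 0.609, 0.533 and 0.645 FPKM. The cytoplasm held little throughout, at 0.408, 0.402 and 0.555 FPKM and then 0.166, 0.184 and 0.127 FPKM. The nuclear fall was of -3.75 and the ratio change -3.21 ± 0.31 (adjusted p = 0.00288, 12 of 12 fits). Whole cells held 0.592 FPKM at day 0 and 0.660 FPKM at day 10, far below the nuclear level at day 0.

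Bgn (chrX:73483602-73495933), the matrix proteoglycan biglycan, went in the nucleus from 11.02, 9.77 and 10.2 FPKM to 1.04, 0.897 and 1.02 FPKM. In the cytoplasm it went from 1.43, 1.45 and 1.41 FPKM to 0.541, 0.654 and 0.789 FPKM. Both fractions fell without overlap, with a ratio change of -2.13 ± 0.17 (adjusted p = 0.000788, 12 of 12 fits). Acta1, the actin of skeletal muscle, went in the nucleus from 72.6, 50.6 and 66.6 FPKM to 26.5, 19.7 and 20.0 FPKM, with 15.3 to 24.2 FPKM in all cytoplasmic libraries. The cytoplasmic change did not pass (0.43, adjusted p = 0.0551), while the ratio change was -1.92 ± 0.22 (adjusted p = 0.00549, 12 of 12 fits), and whole cells went from 11.5 to 43.9 FPKM. Mhrt (ratio change -2.35, adjusted p = 0.0159, 7 of 12 fits) is antisense to a myosin gene and the strand setting of the counting is not given in the sources used here, so reads of the 2 strands may not be told apart. Cd44, the hyaluronan receptor, had a ratio change of -1.73 (adjusted p = 0.0291, 2 of 12 fits).

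Secreted signals were in this class as well. Vegfa, the vascular growth factor, went in the nucleus from 21.7, 23.4 and 24.5 FPKM to 6.82, 7.18 and 6.78 FPKM. In the cytoplasm it went from 9.59, 7.98 and 8.34 FPKM to 4.30, 4.51 and 4.097 FPKM. It fell without overlap in both fractions, with a ratio change of -0.75 ± 0.14 (adjusted p = 0.0293, 2 of 12 fits), and was the 1 of 18 hypoxia genes whose ratio changed. Of the 18, 10 fell and 2 rose in the nucleus, beside 21.6% and 15.1% of all genes. In the cytoplasm 8 fell and 0 rose, beside 16.6% and 16.0%. With the 10 other libraries the ratio of 5 hypoxia genes was higher and of 5 lower, beside 17.1% and 21.6% of all genes. Bmp4, a ligand of the TGF-β family, went in the nucleus from 17.04, 15 and 8.26 FPKM to 3.98, 2.78 and 2.43 FPKM, with cytoplasmic groups that did not overlap between 2.52 and 3.53 FPKM. Its ratio change was -1.62 ± 0.34 (adjusted p = 0.0464, 2 of 12 fits). Of the 28 TGF-β and Nodal pathway genes, the ratio fell in Bmp4 and Tgfbr2 and rose in 0 (median -0.36), and without the 2 nuclear libraries it fell in 18 and rose in 3 (median -0.72). Krt19, a keratin of simple epithelia (-1.53, adjusted p = 0.0168, 7 of 12 fits), was the 1 of 12 trophoblast markers whose ratio changed, and Hist1h2ac (-1.47, adjusted p = 0.0241, 3 of 12 fits) was the other of 2 called among 29 histone genes. Hist1h2ac was low, at 1.42, 1.40 and 0.81 FPKM in the nucleus at day 0 and 0.24, 0.16 and 0.12 FPKM at day 12. In the cytoplasm all its values lay between 0.03 and 0.15 FPKM, below the 0.5 FPKM added to every value. With the 10 other libraries 6 of the 12 trophoblast markers were lower and 3 higher, and 4 of the histone genes lower and 0 higher.

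Fibroblast and smooth muscle markers were the list with the largest share of ratio changes among the 31 lists, 5 of 14 lower and 0 higher, with a median of -1.12. With the 10 other libraries 11 were lower and 2 higher, with a median of -1.29. In the nucleus 8 fell and 3 rose (median -0.62), beside 21.6% and 15.1% of all genes. In the cytoplasm 7 rose and 1 fell (median 0.48), beside 16.0% and 16.6%. Acta2 (chr19:34241090-34255590), smooth muscle actin, went in the nucleus from 143.2, 113 and 105 FPKM to 53.9, 72.4 and 78.5 FPKM. In the cytoplasm it went from 23.2, 21.1 and 18.98 FPKM to 38.5, 41.3 and 38.0 FPKM. The groups did not overlap and moved in opposite directions, with a ratio change of -1.70 ± 0.23 (adjusted p = 0.0101, 12 of 12 fits), while whole cells went from 19.1 to 173.8 FPKM. Tpm1, a tropomyosin, had a ratio change of -1.63 (adjusted p = 0.0164, 7 of 12 fits), and Tagln (-1.55, adjusted p = 0.0187, 4 of 12 fits) and Pdgfrb (-1.31, adjusted p = 0.0332, 2 of 12 fits), named after their values were seen, were the other 2 beside Col1a2. Actins share near-identical stretches, so reads may be split between Acta1, Acta2 and their relatives.

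The summed level of the fibroblast markers was 502 to 854 FPKM in the day 0 nuclei and 280.6 to 301.9 FPKM in the day 0 cytoplasm, beside 273 to 322 FPKM in whole cells. At day 12 it was 623 to 719 FPKM in the nuclei and 765 to 795 FPKM in the cytoplasm, and in whole cells at day 10 it was 1180 to 1215 FPKM. At day 0, 12 of 17 markers were higher in the nuclear libraries without overlap. The same count was 17 of 21 for SR and Clk splicing genes and 2 of 26 for naive pluripotency genes. It was not made over all genes, of which 25.3% were higher in the nucleus at day 0 by the test. The markers Dcn, Lum and Fap stayed under 0.5 FPKM in all 4 groups. The part of such cells in the ratio changes was not tested. Naive pluripotency markers, which define embryonic stem cells, summed to 3965 to 4011 FPKM in the cytoplasm at day 0 and to 2816 to 2944 FPKM at day 12. In the nucleus they summed to 2664 to 5773 FPKM and then 1881 to 3807 FPKM, so those groups overlapped. Whole cells held 3188 to 3810 FPKM of them at day 0 and 3197 to 3427 FPKM at day 10.

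Some genes with opposite changes in the fractions belong to RNA processing. Srsf1 (chr11:88047373-88053755), a splicing factor of the SR family, went in the nucleus from 145, 182 and 183 FPKM to 86.5, 92.3 and 98.7 FPKM. In the cytoplasm it went from 55.3, 68.0 and 70.7 FPKM to 88.1, 101 and 86.9 FPKM. Its groups did not overlap in either fraction, while whole cells held 75.5 FPKM at day 0 and 78.6 FPKM at day 10. The ratio change was -1.38 ± 0.19 (adjusted p = 0.0108, 11 of 12 fits, all but the one without cytoplasm day 12 replicate 1). Srsf5 moved the same way (-0.89, adjusted p = 0.032, 2 of 12 fits). They were the 2 of 21 SR and Clk genes whose ratio fell, and none rose (median -0.27), with 9 down and 0 up in the nucleus (median -0.35) and 3 up and 2 down in the cytoplasm (median 0.00). Over all genes 21.6% were down and 15.1% up in the nucleus, and 16.0% up and 16.6% down in the cytoplasm. When the 2 nuclear libraries were left out, the ratio of 10 SR and Clk genes was lower and of 3 higher (median -0.28).

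Host genes of small nucleolar RNAs, whose spliced transcripts are often rapidly degraded, mostly fell in the nucleus. Of 11, 9 fell in the nucleus and 0 rose (median -1.23), beside 21.6% and 15.1% of all genes. In the cytoplasm 5 fell and 1 rose (median -0.68), beside 16.6% and 16.0%. The ratio fell in 1, Snhg15, and rose in 0, with a median of -0.53, and without the 2 nuclear libraries it fell in 7 and rose in 0 (median -0.48). Snhg15 went in the nucleus from 21.99, 21.8 and 30.1 FPKM to 17.7, 14.8 and 14.7 FPKM and in the cytoplasm from 5.40, 5.82 and 6.13 FPKM to 9.15, 10.3 and 8.85 FPKM. Its groups moved in opposite directions without overlap, with a ratio change of -1.28 ± 0.20 (adjusted p = 0.0161, 6 of 12 fits).

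The other genes of the opposite class named by rule were of mixed function, and the rule had asked for no overlap in both fractions. Selenow, a selenoprotein, went in the nucleus from 49.3, 44.3 and 61.4 FPKM to 29.0, 26.5 and 24.0 FPKM and in the cytoplasm from 62.9, 67.3 and 58.8 FPKM to 86.5, 92.4 and 99.7 FPKM. It had no overlap of groups and a ratio change of -1.50 ± 0.19 (adjusted p = 0.0087, 12 of 12 fits). Plau, the urokinase protease, had a ratio change of -2.01 (adjusted p = 0.0159, 7 of 12 fits), and Myh14, a nonmuscle myosin, rose in the nucleus and fell in the cytoplasm with a ratio change of 1.84 (adjusted p = 0.0389, 4 of 12 fits). Snord91a had a ratio change of -3.24 (adjusted p = 0.0375, 3 of 12 fits), but it was listed at 0 in 2 of 3 cytoplasmic libraries at day 0, lies inside a host gene and is too short to be measured well in polyadenylated RNA.

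Naive pluripotency genes had a positive median ratio change. Of 26 naive pluripotency genes the ratio rose in 1, Tfcp2l1, and fell in 0, with a median of 0.22 (0.31 without the 2 nuclear libraries, where 12 rose and 3 fell). In the cytoplasm 8 fell and 4 rose (median -0.24), beside 16.6% and 16.0% of all genes. In the nucleus 7 rose and 4 fell (median -0.02), beside 15.1% and 21.6%. Tfcp2l1, a transcription factor of the naive state, went in the cytoplasm from 46.4, 41.5 and 43.3 FPKM to 32.9, 31.5 and 33.1 FPKM and in the nucleus from 25.4, 24.9 and 22.5 FPKM to 36.3, 30.2 and 30.3 FPKM. Its groups did not overlap, with a ratio change of 0.82 ± 0.14 (adjusted p = 0.0241, 6 of 12 fits). Whole cells did not share the cytoplasmic fall, with 13.98 FPKM at day 0 and 20.29 FPKM at day 10 (change 0.52, adjusted p = 0.0231 in the whole cell limma fit).

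The 10 nuclear lncRNAs of the list did not pass with all 12 libraries. Malat1, a nuclear lncRNA, stood in the nucleus at 213, 228 and 415 FPKM at day 0 and at 80.4, 223 and 254 FPKM at day 12. Its highest and its lowest value were those of the 2 libraries that stood apart, and the groups overlapped. The ratio change was -0.79 ± 0.54 (adjusted p = 0.512) and 0.03 without the 2. Neat1, the lncRNA of paraspeckles, had a ratio change of -0.13 ± 0.28 (adjusted p = 0.864) and 0.04 without the 2. Of the 10, 0 passed in either direction, with a median of -0.31, but without the 2 libraries 4 were lower and 0 higher, with a median of -0.47. Their summed level was 341 to 551 FPKM in the day 0 nuclei and 41.7 to 44.9 FPKM in the day 0 cytoplasm. Ratio changes also passed in 0 of 15 host genes of microRNAs (median -0.48, and 8 lower and 2 higher of 16 without the 2) and 0 of 15 genes of the microRNA machinery (median 0.04, and 5 lower and 2 higher of 14 without the 2, median -0.19).

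Ribosomal protein and respiratory chain genes, both short and abundant, turned with the 2 nuclear libraries. With all 12 libraries 0 of 77 ribosomal protein genes passed (median -0.12), and without the 2, 62 were higher and 0 lower (median 0.61). For 74 respiratory chain genes the count was 0 (median 0.01), and without the 2, 60 were higher and 1 lower (median 0.63).

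Tested genes of the 2-cell stage, which mark a rare state of embryonic stem cells, rose in both fractions without a ratio change that passed. Of 6 tested, 6 rose in the nucleus (median 1.39) and 5 in the cytoplasm (median 0.63), and 0 fell, with a median ratio change of 0.82. Another 9 of the 15 in the data stayed under 0.5 FPKM in all 4 groups. At day 0 the list summed to 0.46 to 0.85 FPKM in the nucleus and 0.08 to 0.15 FPKM in the cytoplasm. The tested genes thus passed the filter mainly through day 12, and their count of rises was close to fixed in advance. When the 2 nuclear libraries were left out, 7 passed the filter on low values, and the ratio of 4 was higher and of 0 lower. This list holds genes with near-identical copies.

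With all 12 libraries no ratio change passed among let-7 targets (19 tested, median 0.14), mesoderm (12, -0.51), endoderm (10, -0.25), neuroectoderm (6, -0.03), germline (13, -0.14) and blood (3, 0.21) markers. The same held for primed pluripotency (10, -0.05), DNA methylation (9, 0.27), glycolysis (17, 0.05), stress response (16, -0.01) and imprinted (24, -0.07) genes, each set against -0.06 over all genes. When the 2 nuclear libraries were left out, some of each list passed. Over all genes 17.1% were then higher and 21.6% lower, with a median of -0.04. Among mesoderm markers 8 were then lower and 0 higher (median -0.88), and among endoderm markers 3 lower and 0 higher of 9 (median -0.43). Germline markers turned to a median of 0.40, with 5 higher and 2 lower, and let-7 targets to -0.16, with 7 lower and 4 higher. Neuroectoderm markers had 2 lower and 1 higher (median -0.15), and blood markers 2 higher and 0 lower (median 0.58). Primed pluripotency genes had 5 lower and 1 higher (median -0.43), and DNA methylation genes 3 lower and 1 higher (median 0.11). Glycolysis genes had 7 higher and 2 lower (median 0.17), stress response genes 4 lower and 3 higher (median -0.03), and imprinted genes 9 lower and 4 higher of 25 (median -0.28).

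**Figure D4:**
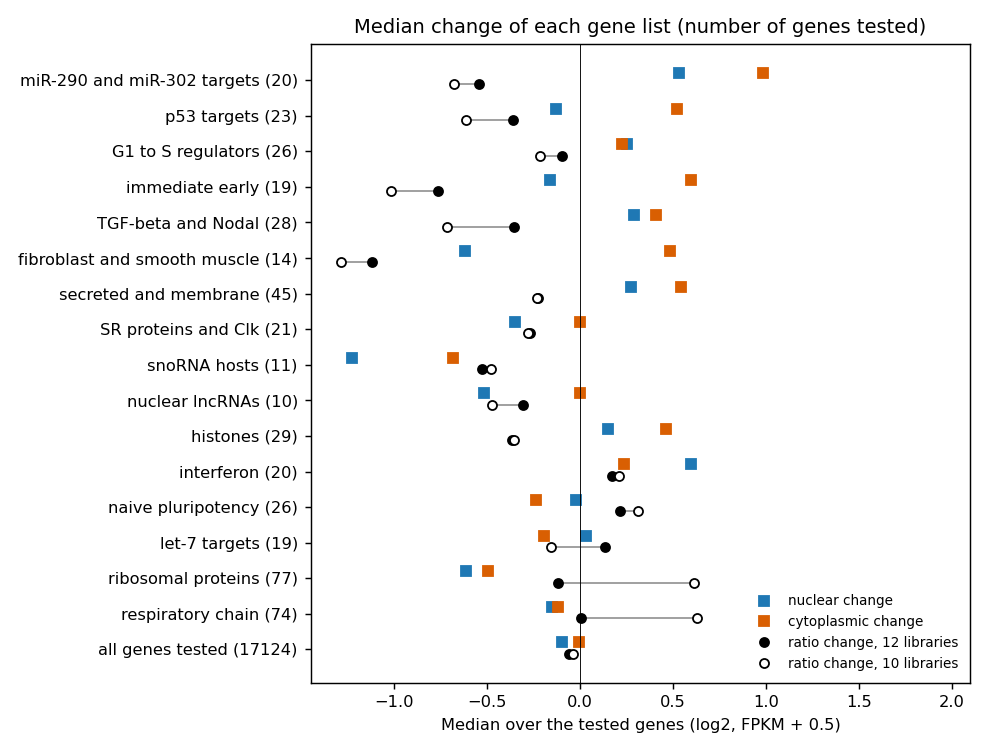
Median changes of the gene lists in log2 units. Squares show the nuclear and the cytoplasmic change, filled circles the ratio change with 12 libraries and open circles that with 10. The fibroblast and immediate early lists lie lowest among the named lists (medians -1.12 and -0.77), while the ribosomal protein and respiratory chain lists move from near 0 to 0.61 and 0.63.

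Whole cell libraries were not used to call the ratio, and the relative level of each class in them is given here. By day 10, 43.7% of 15991 genes tested in whole cells differed from day 0, with 27.7% of those tested higher and 16.0% lower. Of 89 genes of the class that rose mainly in the cytoplasm, 87 were higher and 0 lower, with a median of 1.43. That class was chosen by a cytoplasmic rise, and no share for other genes that rose in the cytoplasm is given beside it. Of 54 genes that fell mainly in the nucleus, 13 were higher and 7 lower (median 0.16). Of 19 that fell mainly in the cytoplasm 0 were higher and 3 lower (median -0.16), of 16 that rose mainly in the nucleus 3 were higher and 0 lower (median 0.20), and of 37 with opposite changes 20 were higher and 1 lower (median 0.52). Without the libraries labelled day 12, which had entered the spread, 86 of the 89 were higher and 0 lower, and of 52 genes that fell mainly in the nucleus 13 were higher and 4 lower. The 7 lower genes of that class also became 3 without whole cell day 0 replicate 1 or day 10 replicate 3, and 4 without day 10 replicate 2. At day 8, where 29.8% of all genes differed (20.2% higher and 9.62% lower), 80 of the 89 were already higher and 0 lower. The days differ from that of the fractions, so levels in whole cells and fractions are set side by side only.

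**Figure D5:**
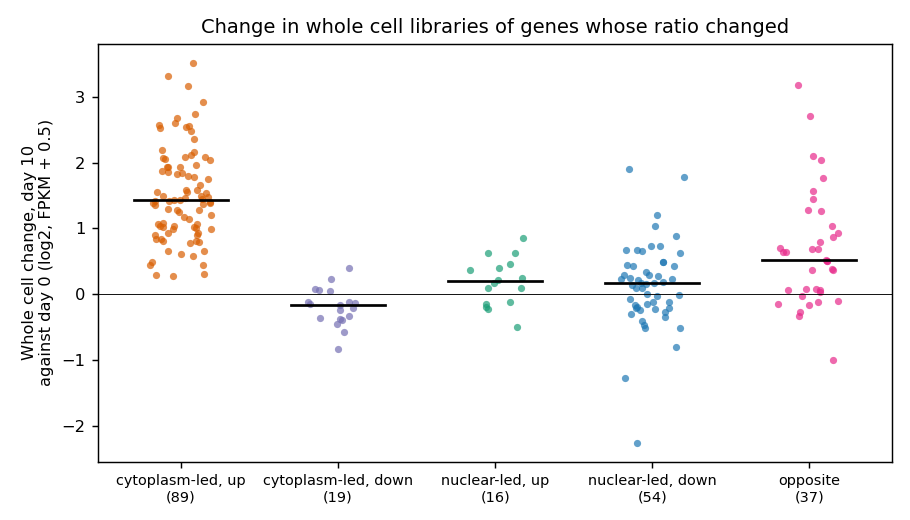
The change in whole cells from day 0 to day 10, in log2(FPKM + 0.5), for the genes of each class of ratio change (points) and its median (bar). The class that rose mainly in the cytoplasm has a median of 1.43, and the classes led by the nucleus have medians of 0.16 and 0.20.

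The classes are described here by kind and length of gene, with no test between them. Of the 227 genes 194 were protein-coding, or 85.5%, beside 78.2% of all genes tested. Median exon length of the protein-coding ones was 3587 bases in the class that rose mainly in the cytoplasm, 3993 bases in that which fell mainly in the nucleus, 3861 bases in the opposite class, 5926 bases in that which fell mainly in the cytoplasm and 6322 bases in that which rose mainly in the nucleus, beside 4270 bases over all genes tested. The 2 nuclear libraries deviate along this same measure. In 22 of the 227 genes no group mean reached 2 FPKM.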

How the data were processed

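Polyadenylated RNA of 27 libraries was measured, of which 12 fraction libraries make the comparison and the whole cell libraries stand beside it. The authors deposited 1 FPKM value per gene and library, per the file headers. Tools listed in the submitters' processing notes are TopHat2 2.0.9 and Cufflinks 1.3.0, with mm9 as the build. Which annotation was counted, whether strand was used and how reads matching several places were handled is not given in the sources used here. Groups came from the labels, which name biological replicates without a word on separate cultures, so a p-value here speaks of library-to-library spread, which may be technical.

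The scale of all tests was log2(FPKM + 0.5). Means per fraction and day were fitted in limma 3.58.1 (R 4.3.3), using eBayes with a trend, and p-values were Benjamini-Hochberg adjusted over every gene that averaged 0.5 FPKM or more in 1 group. Changes are on this scale, which understates those of low genes. Dicer1 was tested by exact permutation. A separate fit held the 15 whole cell libraries. A class is opposite where both fractions passed in opposite directions, and otherwise follows the larger change. Named by rule were the 5 genes with the largest ratio change in each class that reached 2 FPKM in 1 group, did not overlap between days in the leading fraction and kept their sign with each library left out, up to 3 genes called in each list, and Dicer1, Malat1, Neat1, Cdkn1a and Lats2. In the opposite class the rule asked for no overlap in both fractions. Predicted models, pseudogenes and ambiguous symbols were not named. The comparison, the members and the 31 lists were chosen with earlier results of these data known.

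GENCODE M21 (GRCm38) gave coordinates, gene types and UTRs through the gene identifiers, of which 36253 of 38123 matched, and mm9 coordinates were not used. Python 3.11.15, numpy 2.4.6, pandas 2.3.3, scipy 1.17.1 and matplotlib 3.10.9 served for the rest, and limma's use here was tested on simulated data. The simulated noise was independent between genes and libraries, so that run did not cover libraries that deviate along transcript length. Alternatives were pseudocounts of 0.1 and 1, no filter and a mean of at least 1 FPKM, median-of-ratios scaling, quantile normalization, replicate blocks, array weights, all 27 libraries in the fit, protein-coding and lncRNA genes alone, leaving out the 2 nuclear libraries, and leaving out each library in turn. Array weights by fraction and all alternatives for whole cells were added after the data were seen. Read totals were not used, so the absolute depth is unknown.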

Additional observations from a re-analysis of the deposited data

Results flagged for a closer look

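In 227 genes the change from day 0 to day 12 differed between the nucleus and the cytoplasm by the test of the difference itself, the interaction term in limma with Benjamini-Hochberg adjustment. In 37 of them both fractions passed their own tests in opposite directions, among them Acta2, Selenow, Srsf1, Snhg15 and Tfcp2l1. How far these counts follow the 2 nuclear libraries that stood apart, and membrane-bound RNA in the nuclear fraction, was not tested beyond the values given above.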

How the results depend on the processing

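Counts below are in the order of ratio change, then genes that rose mainly in the cytoplasm, fell mainly in the cytoplasm, rose mainly in the nucleus, fell mainly in the nucleus, and had opposite changes. Unplaced genes are not among the classes listed, and numbered 111 without the 2 nuclear libraries and 129 with array weights. Without the 2 nuclear libraries they were 6580, 1502, 1298, 1186, 1533 and 950, with 9613 nuclear and 10114 cytoplasmic changes. With all 27 libraries in the fit they were 933, 385, 86, 111, 267 and 83. With array weights they were 10414, 1847, 1752, 2190, 2818 and 1678, with 14189 nuclear and 11003 cytoplasmic changes, but the weights ran from 0.0427 to 22.5 and the estimate did not converge. With weights by fraction, added after the data were seen, 149 ratio, 2857 nuclear and 10265 cytoplasmic changes passed, and 20 genes fell mainly in the nucleus. With quantile normalization 137 passed, 56 higher and 81 lower, and the first 4 classes held 30, 11, 30 and 37. With no filter 29 genes rose mainly in the nucleus. Leaving out 1 library gave 24 to 1699 for the ratio, 9 to 522, 1 to 297, 1 to 330, 9 to 410 and 4 to 162 for the classes, 4783 to 6737 for the nuclear and 4129 to 7547 for the cytoplasmic change. Where the cause is not shown by fewer libraries or genes or by the weights themselves, it was not tested. Malat1 turned to 0.163 with array weights and 0.031 without the 2 nuclear libraries. Neat1 turned to 0.042 with quantile normalization, 0.39 with array weights, 0.04 without the 2 and 0.092 without nucleus day 0 replicate 3, and over the fits without 1 library it ran from -0.385 to 0.092. With pseudocounts of 0.1 and 1, no filter, a mean of at least 1 FPKM, median-of-ratios scaling and coding and lncRNA genes alone, 253, 250, 216, 262, 196 and 294 genes passed, and the share that was higher moved from 20.7% to 31.6% with the scaling and to 40.9% with quantile normalization. The number of genes that differed in whole cells stayed within 1.5 times at day 8 and day 10 under every alternative run, but of these the lower ones at day 8 went from 1539 to 974 without whole cell day 0 replicate 1.

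With the replicate number as a block, 53 genes passed the ratio test, and the classes in the order above held 23, 1, 4, 13 and 12. With a block of number and day 1 gene passed, Emp1, and the nuclear and cytoplasmic changes cannot be estimated. The labels do not say what a number shares, and same-numbered fractions of a day deviated together with r from -0.086 to 0.153, over 0.1 in 2 of 6 pairs, while 4 of 12 libraries correlated best with their own number. The numbers were therefore not taken to pair the libraries.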
